A study of Mus musculus with 56 samples.

Results

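The proteasome subunit genes examined here were the 38 gene names on the array that begin with Psma, Psmb, Psmc or Psmd, without Psmb8 and Psmb9, out of 30199 gene names. Where a gene had more than 1 probe, the brightest probe stood for it. Of the 38 genes, 36 passed the filter on dim and uneven spots, among 18802 genes that did so (18801 at day 4). By name, 17 belong to the 20S core particle, 17 to the 19S regulatory particle and 4 to neither. Psma8 and Psmb11, core subunits known from testis and thymus, did not pass the filter and were well above background on 2 and 0 of the 56 arrays. The 4 genes in neither particle were the assembly chaperones Psmd5, Psmd9 and Psmd10, and Psmc3ip, which carries the prefix but encodes no proteasome subunit and was well above background on 19 arrays. Of the 36 genes tested, 32 were well above background on all 56 arrays, and no member was saturated.

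The study injected C57BL/6 mice, about 10 to 12 weeks old, in the tail vein with 200 kBq of the bone-seeking beta emitter 90Sr, and took blood at 5 times, on days 4, 7, 9, 25 or 30. Control mice received the saline vehicle and were bled on the same days, so that each day had its own controls. RNA from whole blood, drawn by cardiac puncture and depleted of globin transcripts, was hybridized to 1 one-colour array per mouse, with 4 mice per group at day 4 and 6 per group at each later day. Every mouse carried the same injected activity, so time after injection and accumulated dose cannot be told apart.

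The proteasome degrades proteins tagged with ubiquitin. Its core particle is a barrel of alpha rings, which gate the entry, and beta rings, which hold the catalytic sites, and its regulatory particle has a base of ATPases that unfold the substrate and a lid that removes ubiquitin. In lymphocytes and under interferon, the catalytic beta subunits Psmb6, Psmb7 and Psmb5 are replaced by Psmb9, Psmb10 and Psmb8 to form the immunoproteasome, which shapes peptides for antigen presentation. The transcription factor Nfe2l1 is known to raise proteasome genes through antioxidant response elements in their promoters.

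Promoter windows from RefSeq (GRCm38.p6), each 250 bases before to 50 bases after a gene's start, were searched for the antioxidant response element letters TGACNNNGC on either strand. A window was at hand for 31 of the 38 genes, and 5 of these genes held the letters. By window, 5 of their 33 windows (15.2%) held them, against 12.4% of all 32851 windows. Psma8, Psmb1, Psmb2, Psmb7, Psmc3, Psmd3 and Psmd7 were not matched. Stretches of 60 bases around the match are shown for the 5 members in which the letters were found, with the matching letters in capitals and each read 5′ to 3′ on the gene's strand. A match is a description of the sequence and not a mapped site.
Psmb5, chr14:54618008-54618067, minus strand: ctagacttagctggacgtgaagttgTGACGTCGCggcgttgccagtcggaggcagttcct
Psmb6, chr11:70525297-70525356, plus strand: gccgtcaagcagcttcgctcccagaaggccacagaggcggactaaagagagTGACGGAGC
Psmc6, chr14:45329574-45329633, plus strand: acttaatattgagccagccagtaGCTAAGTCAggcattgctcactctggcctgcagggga
Psmd12, chr11:107479278-107479337, plus strand: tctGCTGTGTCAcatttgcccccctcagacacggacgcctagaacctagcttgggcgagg
Psmd9, chr5:123228130-123228189, plus strand: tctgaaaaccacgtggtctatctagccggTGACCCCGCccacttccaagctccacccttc

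Levels below are log2 of the background-corrected signal minus the median of that array, and a change is the mean level in 90Sr mice minus that in the controls of the same day. The array median itself was lower in 90Sr mice by 0.59 to 0.94 on the log2 scale, depending on the day (exact permutation test, two-sided, adjusted p = 0.0036075 to 0.0285714 over 10 comparisons), so each change is relative to this shift. Fewer cells of a type and less RNA per cell cannot be told apart on arrays of whole blood. The paper counted blood smears by hand and reported that counts did not differ significantly between exposed and control mice at any day. Of 8 B cell markers, 6 or 7 fell at each day (median change -1.74 to -2.44), and their summed signal ran from 655.362 to 1460.79 in control mice and from 120.884 to 569.769 in 90Sr mice. Of 10 reticulocyte and red cell markers, 7 to 10 rose (median 0.57 to 1.13), and of 8 T cell markers 4 to 6 fell. The markers of lymphocytes did not all go one way: Pax5 rose at days 25 and 30 (0.64 and 1.13), Cd3e at day 7 (0.38) and Cd4 at day 30 (1.95). Neutrophil markers fell for 4, 2, 1, 4 and 0 of 8 genes, NK cell markers for 1, 3, 4, 4 and 2 of 5, monocyte markers for 1, 2, 3, 3 and 2 of 5 tested (with 1 risen at days 7, 9 and 25), and platelet markers rose for 2 of 5 at day 4 and 5 of 5 at day 30. Of all genes tested, 33.6%, 33.6%, 27.3%, 38.2% and 29.7% fell at the 5 days in order, and 20.3%, 24.1%, 15.2%, 25.8% and 34.4% rose. The share of neutrophil markers that fell was below this background at days 7, 9 and 30. The shares of NK cell and monocyte markers were below it at day 4. The part of these cell markers in the proteasome values was not tested. Slide and group coincided at day 4 and cannot be told apart there, and at each later day 1 of 3 slides held both groups, 2 arrays of each. At day 7, 90Sr replicates 2 to 5 were scanned on a day that held no controls, and so were 90Sr replicates 3 to 6 at day 30. None of the slides or scan days was shared between days after injection.

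Most proteasome genes were lower in 90Sr mice at every day. By limma with adjusted p under 0.05, 25, 26, 22, 28 and 23 of the 36 genes fell, in the order of the days (used for all such series below). Of all genes tested, 33.6%, 33.6%, 27.3%, 38.2% and 29.7% fell. The members that rose numbered 1, 3, 3, 1 and 4 at the 5 days, where 20.3%, 24.1%, 15.2%, 25.8% and 34.4% of all genes rose. The median change of the members was -0.77, -0.63, -0.64, -0.95 and -0.70, beside -0.01, -0.00, -0.08, -0.10 and 0.12 over all genes. The members' median lay below 0 under each of 4 scalings at every day, but scaling to the 75th percentile, which set the median of all genes at 0.31 to 0.47, left 17, 20, 11, 22 and 21 members lower and 7, 6, 7, 3 and 5 higher. Of all genes, 22.3%, 23.0%, 18.1%, 24.6% and 26.1% were then lower and 48.0%, 43.6%, 33.2%, 45.8% and 40.7% higher. With a normexp background correction as first planned, 0 members passed as lower at any day (14, 19, 14, 0 and 0 at an unadjusted p under 0.05, limma), and their median change at days 25 and 30 was 0.0277 and 0.0745. A few spots of very bright local background set that correction on several arrays, and without them 33, 31, 31, 34 and 28 members fell, where 46.9%, 44.9%, 50.4%, 50.03% and 36.8% of all genes fell.

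The study's methods required an unadjusted p under 0.001 and a change of at least 2-fold. Applied to limma's p, that rule called 10, 4, 5, 15 and 11 members lower, against 17.4%, 12.0%, 13.7%, 19.8% and 16.1% of all genes. At days 7 and 9 the members' count was close to the background by this rule, and at day 25 it was furthest above it. With the methods' t-test 7, 4, 5, 15 and 9 members were called lower, and at day 4 this count is nearer to the share of all genes, which was taken by limma's p. Psmd4 at day 30 was the 1 member called higher, where the share of all genes called higher was 2.14%, 2.59%, 4.42%, 5.70% and 15.5% over the 5 days.

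**Figure D1:**
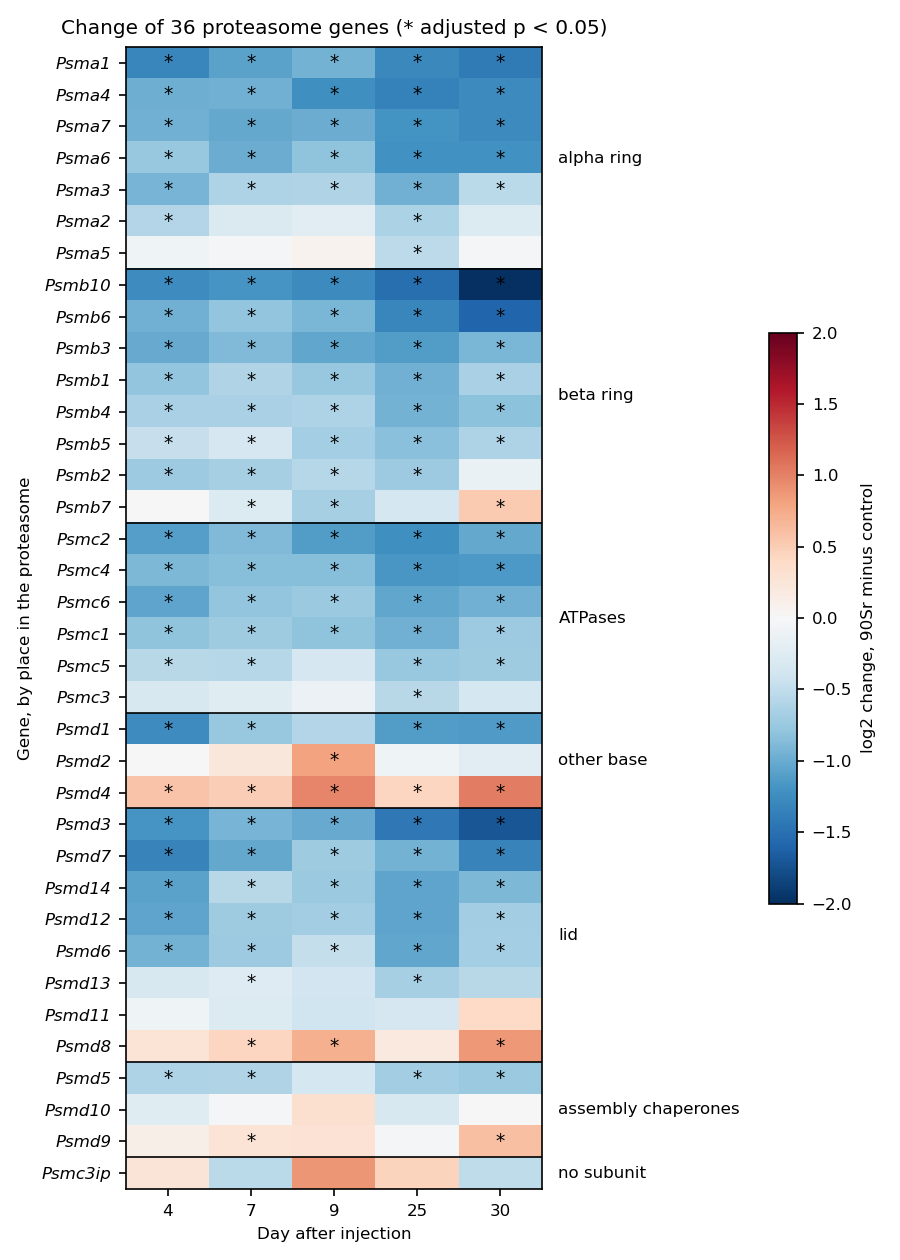
Change of each of the 36 tested genes (log2, 90Sr minus control, colour) at each day, with genes grouped by their place in the proteasome and a star where limma's adjusted p was under 0.05. Between 22 and 28 genes are lower at each day, and Psmd4 is the gene with a star for a higher level at all 5 days, which with a normexp background correction turned below 0 at days 4 and 25.

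At all 5 days together, 20 of 36 members fell, where 20.6% of all genes did. They were 11 of the 15 core genes and 9 of the 17 regulatory genes, and none of the 4 others. A further 4 genes fell at 4 days, 5 genes at 1 to 3 days and 7 at no day. Psmd4 was the 1 member that rose at all 5 days, where 2.40% of all genes did. Psmc3ip, Psmd10 and Psmd11 passed the test in neither direction at any day. With the slide as a block, members lower numbered 20, 10, 0 and 0 at days 7, 9, 25 and 30 (24, 19, 15 and 9 at an unadjusted p under 0.05), and all genes lower came to 24.3%, 14.0%, 0.0213% and 0.920%. With the scan day as a block, 11 members were lower at day 30 in place of 23, and the share of all genes is not given for that block. Within the slides that held both groups, the median change of the members was -0.75, -0.82, -0.57 and -0.53, with 31, 31, 35 and 29 of 36 genes below 0, beside a median over all genes of -0.05, -0.05, -0.24 and 0.12.

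The alpha ring forms the outer rings of the core. Of its 7 genes tested, 6, 5, 5, 7 and 5 fell at the 5 days, with a median change of -0.94, -0.96, -0.80, -1.19 and -1.20. Psma1 (probe at chr7:121408229-121408288, mm9) was among those that fell throughout. At day 4 its level was 5.64, 5.48, 5.97 and 5.26 in the control mice and 4.68, 3.97, 4.42 and 4.08 in the 90Sr mice, so that all 4 exposed mice were below all controls. At day 30 the control mice ran from 4.42 over a median of 5.61 to 5.78, and the 90Sr mice from 3.54 over 3.86 to 4.48. There 5 of 6 exposed mice lay below every control, and the lowest control, replicate 4, overlapped with the exposed mice. That control also had the lowest core mean of its group (4.96, the others 5.44 to 6.12). Its array had the lowest 75th percentile of the group (5.91, the others 6.71 to 7.39). Overlaps of other members at day 30 may share this array, which was not tested. The change of Psma1 was -1.30 ± 0.21 (SE, limma adjusted p = 0.000796) at day 4 and -1.41 ± 0.26 (adjusted p = 0.000363) at day 30, with -1.08, -0.94 and -1.29 between them.

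Psma4, Psma6 and Psma7 also fell at every day, by -0.98, -0.75 and -0.96 at day 4 and by -1.27, -1.20 and -1.27 at day 30. Psma3 changed by -0.94, -0.62, -0.60, -0.96 and -0.54 and passed at each day. Psma2 fell at days 4 and 25 (-0.58 and -0.63) and did not pass at the others. Psma5 stood apart within the ring. Its level at day 4 was 5.72, 5.67, 5.84 and 5.14 in control mice and 5.66, 5.52, 5.38 and 5.45 in 90Sr mice, which overlapped, and its change was -0.09, -0.03, 0.08, -0.52 and -0.04, of which the value at day 25 passed (SE 0.16, limma adjusted p = 0.0102).

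The beta ring carries the peptidase sites. Of its 8 genes tested, 7, 8, 8, 7 and 6 fell, and the median change was -0.75, -0.66, -0.72, -0.95 and -0.73. Psmb10 (chr8:108459677-108459736, mm9), the immunoproteasome subunit that takes the place of Psmb7, had the largest fall of any member at day 30. At day 4 it read 6.42, 6.38, 6.76 and 6.26 in control mice, beside 5.31, 4.90, 5.30 and 5.27 in 90Sr mice. At day 30 the control mice ran from 6.20 over 6.82 to 8.07, and the 90Sr mice from 4.50 over 4.89 to 5.82. At every day all exposed mice lay below all controls. The changes were -1.26, -1.18, -1.28, -1.51 and -2.01, that is 2.4-, 2.27-, 2.42-, 2.86- and 4.02-fold lower, with a limma adjusted p of 0.000267 at day 4 and 0.00014 at day 30.

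Psmb6, the caspase-like subunit (chr11:70341093-70341152, mm9), fell in a like manner. At day 4 its levels were 6.23, 6.13, 6.58 and 6.12 in controls and 5.38, 5.10, 5.56 and 5.14 in 90Sr mice, and at day 30 they ran from 5.77 over 6.65 to 7.32 and from 4.79 over 4.96 to 5.51. The groups did not overlap at any day. Its change was -0.97, -0.80, -0.91, -1.30 and -1.59 (SE 0.24 at day 30, limma adjusted p = 0.000125). Psmb5, the chymotrypsin-like subunit whose promoter stretch is shown above (probe chr14:55232957-55233016, mm9), changed less, by -0.46, -0.33, -0.68, -0.84 and -0.61, and passed at all 5 days (adjusted p = 0.049 and 0.0343 at days 4 and 7). Leaving out 1 array at a time ended the call of Psmb5 in 7 of 8 runs at day 4 and in 6 of 12 at day 7. Under the 75th percentile scaling Psmb5 stood at 0.01 at day 4 and 0.02 at day 7. The structural beta subunits Psmb1, Psmb3 and Psmb4 fell at all 5 days, between -0.60 and -1.12, and Psmb2 fell at all but day 30, where it was -0.13.

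Psmb7, the trypsin-like subunit (chr2:38468966-38489385, mm9, a probe across an intron), was the member of the core whose direction turned. At day 4 its levels were 4.93, 5.16, 5.01 and 5.42 in controls and 4.81, 5.06, 5.26 and 5.36 in 90Sr mice, which overlapped. At day 9 the controls ran from 4.47 over 5.17 to 5.36 and the 90Sr mice from 3.82 over 4.47 to 4.64, and at day 30 the controls ran from 3.91 over 4.30 to 4.69 and the 90Sr mice from 4.16 over 4.89 to 5.29. At day 30, 5 of 6 exposed mice lay above all controls. The change was -0.01, -0.28, -0.66, -0.35 and 0.53, of which the falls at days 7 and 9 (adjusted p = 0.0455 and 0.0172) and the rise at day 30 (adjusted p = 0.0395) passed, and it differed between days (limma interaction, adjusted p = 0.00331). These calls rested on nearly any array: leaving out 1 array at a time ended the call at day 7 in 10 of 12 runs and at day 30 in 8 of 12. With the slide as a block Psmb7 passed at none of days 7, 9 and 30, and with the normexp correction without the bright spots its change at day 30 was -0.00874. The control levels of Psmb7 themselves differed between days (adjusted p = 1.25e-07).

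**Figure D2:**
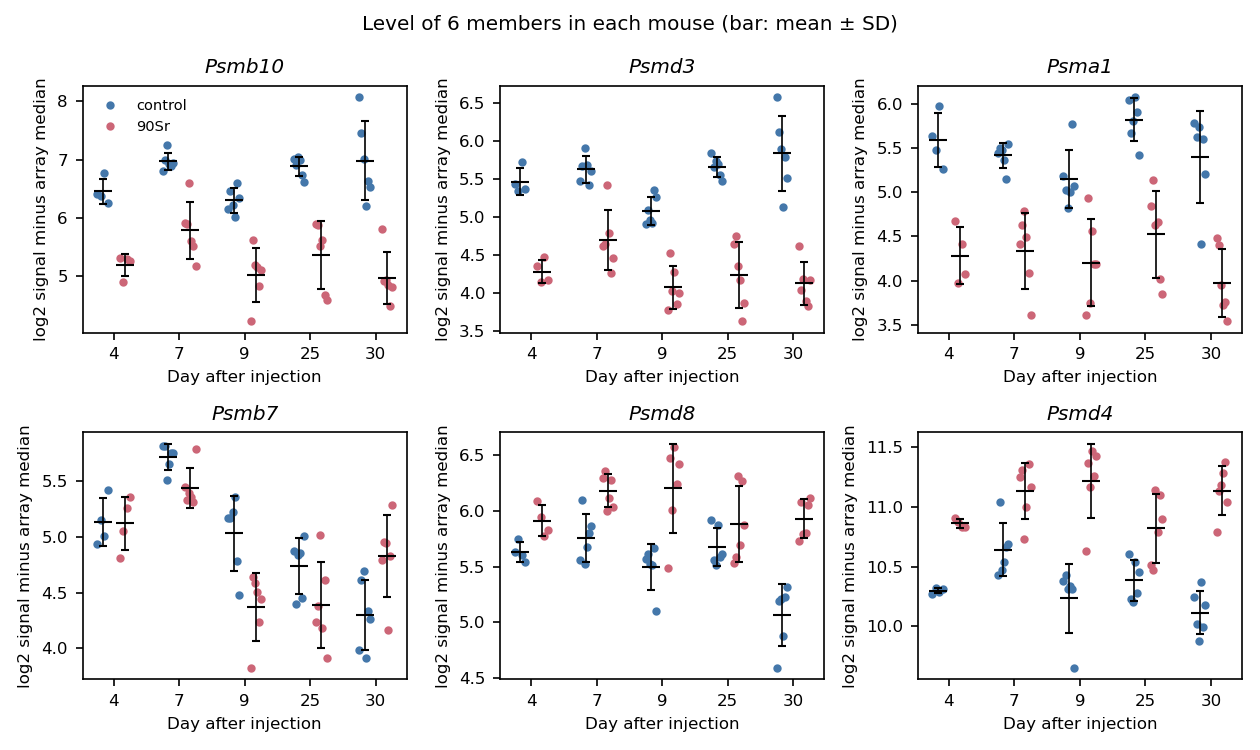
Level of 6 members in each mouse (log2 signal minus array median), control and 90Sr, by day, with the mean and SD as a bar. The 90Sr mice lie below all controls for Psmb10 at every day, and above all 6 controls for Psmd4 at days 9 and 30.

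Setting each immunoproteasome subunit against the subunit it replaces gives the difference of their changes within a mouse, in which a constant scale factor of the array cancels. Psmb8 changed by -1.20, -1.35, -1.41, -1.56 and -1.79 and Psmb9 by -1.43, -1.34, -1.25, -1.48 and -1.24, and both fell at all 5 days by limma. Psmb10 minus Psmb7 came to -1.25, -0.90, -0.62, -1.17 and -2.54, and all exposed mice were below all controls at days 4 and 30. Psmb8 minus Psmb5 came to -0.74, -1.02, -0.73, -0.73 and -1.18, with the exposed mice below all controls except for 1 mouse at day 25. Psmb9 minus Psmb6 was smaller, at -0.46, -0.55, -0.34, -0.18 and 0.36, and 0, 3 and 0 of 6 exposed mice lay below all controls at days 9, 25 and 30. These differences are a description with no test.

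**Figure D3:**
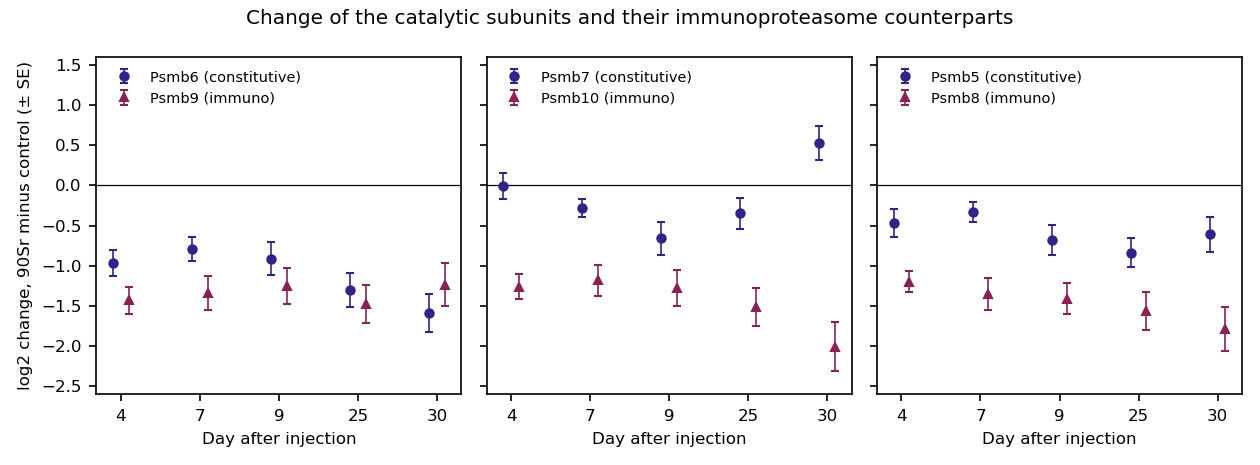
Change (log2, 90Sr minus control, ± SE) of the catalytic subunits Psmb5, Psmb6 and Psmb7 and of their immunoproteasome counterparts Psmb8, Psmb9 and Psmb10 at each day. Psmb10 reaches -2.01 at day 30, where Psmb7 is at 0.53.

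In the regulatory particle the 6 ATPases, which unfold the substrate, fell in 5, 5, 4, 6 and 5 cases, with a median change of -0.85, -0.75, -0.77, -0.999 and -0.84. Psmc2 (chr5:21309536-21309595, mm9) read 5.68, 5.63, 5.78 and 5.06 in the day 4 controls and 4.60, 4.39, 4.55 and 4.22 in the day 4 90Sr mice, without overlap. At day 30 its levels ran from 4.55 over 5.68 to 6.04 in controls and from 4.11 over 4.57 to 4.69 in 90Sr mice, where the ranges overlapped. The change of Psmc2 was -1.10, -0.89, -1.11, -1.22 and -1.02 and passed at each day. Psmc1, Psmc4 and Psmc6 fell at all 5 days and Psmc5 at all but day 9 (-0.34). Psmc3, another ATPase, was at -0.32, -0.24, -0.11, -0.56 and -0.35, and of these the change at day 25 passed (limma adjusted p = 0.00317).

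The other genes of the base went different ways. Psmd1, a scaffold of the base (chr1:88035777-88035836, mm9), read 4.58, 4.47, 4.79 and 4.10 in day 4 controls and 3.41, 3.22, 3.39 and 2.92 in day 4 90Sr mice, and its change was -1.25, -0.75, -0.59, -1.12 and -1.13. It fell at 4 days, with an adjusted p of 0.0526 at day 9. Psmd2, the scaffold that binds ubiquitin-like domains (chr16:20663355-20663414, mm9), was at 6.43, 6.50, 6.38 and 6.47 in day 4 controls and 6.51, 6.76, 6.48 and 6.00 in day 4 90Sr mice. At day 9 the controls ran from 5.06 over 5.48 to 5.85 and the 90Sr mice from 6.02 over 6.28 to 6.39, with no overlap. Its change was -0.01, 0.23, 0.81, -0.09 and -0.21, of which the rise at day 9 passed (SE 0.17, limma adjusted p = 0.0017), and it differed between days (interaction adjusted p = 0.00268). Between days 4 and 9 the mean level of Psmd2 went from 6.45 to 5.45 in controls and from 6.44 to 6.26 in 90Sr mice. The control levels of Psmd2 differed between days (limma, adjusted p = 3.34e-05). Replicate 1 of the 90Sr group at day 9 was low in several members, and without it 5 members rose at that day in place of 3. Its array median, which is subtracted from each level, was the highest of that group (4.12, the others 2.87 to 3.70).

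Psmd4 (chr3:94836627-94836686, mm9), a ubiquitin receptor of the base, rose at all 5 days. At day 4 its level was 10.27, 10.32, 10.29 and 10.32 in controls and 10.91, 10.87, 10.84 and 10.83 in 90Sr mice. At day 9 the controls ran from 9.65 over 10.32 to 10.43 and the 90Sr mice from 10.63 over 11.31 to 11.47, and at day 30 from 9.88 over 10.10 to 10.37 and from 10.79 over 11.16 to 11.37. The groups did not overlap at days 4, 9 and 30, and 4 of 6 exposed mice lay above all controls at days 7 and 25. The change was 0.56, 0.49, 0.98, 0.43 and 1.02, with an adjusted p of 0.00175, 0.00894, 0.00119, 0.0292 and 0.000178, and it differed between days (interaction adjusted p = 0.0388). With the normexp correction without the bright spots, which set the median of all genes at -0.31 to -0.08, the change of Psmd4 was -0.03, 0.07, 0.23, -0.12 and 0.50, and day 30 alone passed. With the reference array scaling the changes of Psmd4 at days 7 and 25 no longer passed. With the slide as a block Psmd4 was at 0.47, 1.01, 0.13 and 0.87 at days 7, 9, 25 and 30 and passed at day 9 alone, and leaving out 1 array at a time ended the call at day 25 in 5 of 12 runs.

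The lid removes ubiquitin from the substrate. Of its 8 genes, 5, 6, 5, 6 and 5 fell and 0, 1, 1, 0 and 1 rose. Psmd3 (chr11:98557183-98557242, mm9), a structural lid subunit, read 5.43, 5.34, 5.72 and 5.36 in day 4 controls and 4.34, 4.14, 4.46 and 4.16 in day 4 90Sr mice. At day 30 the controls ran from 5.13 over 5.84 to 6.57 and the 90Sr mice from 3.82 over 4.11 to 4.62, and the groups overlapped at day 7 alone. The change was -1.18, -0.93, -1.01, -1.42 and -1.71 (3.28-fold at day 30, limma adjusted p = 8.87e-05). Psmd14, the deubiquitinase of the lid, fell by -1.07, -0.55, -0.75, -1.05 and -0.90, and its partner Psmd7 by -1.33, -1.03, -0.72, -0.95 and -1.33. Psmd6 and Psmd12 fell at all 5 days, and Psmd13 at days 7 and 25 (-0.26 and -0.66).

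Psmd8, a lid subunit (chr7:29961170-29962121, mm9), went the other way. Its level at day 4 was 5.63, 5.75, 5.60 and 5.54 in controls and 6.09, 5.95, 5.77 and 5.83 in 90Sr mice, and at day 30 it ran from 4.59 over 5.20 to 5.32 and from 5.73 over 5.93 to 6.12. The groups did not overlap at those days. Its change was 0.28, 0.43, 0.70, 0.20 and 0.86, and it passed at days 7, 9 and 30 (limma adjusted p = 0.00978, 0.0122 and 0.000731). With the same normexp correction it stood at -0.29, 0.01, -0.05, -0.35 and 0.24. Psmd11, the lid subunit that contacts the core (chr11:80283406-80283920, mm9), was at -0.09, -0.27, -0.40, -0.33 and 0.40 and passed at no day, but the day altered its change (interaction adjusted p = 0.0129).

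The assembly chaperones, which guide the ATPases onto the base, showed no common direction. Psmd5 (chr2:34708108-34708167, mm9) fell at days 4, 7, 25 and 30, by -0.62, -0.60, -0.69 and -0.74, and its day 4 levels of 2.64, 2.75, 2.65 and 2.67 in controls and 2.39, 1.81, 2.07 and 1.95 in 90Sr mice did not overlap. Psmd9 (chr5:123691881-123691940, mm9) rose at days 7 and 30 (0.28 and 0.59, limma adjusted p = 0.0268 and 0.00824), but its dimmer probe was at 0.41, -0.31, -0.47, -0.64 and 0.32, and with the normexp correction without the bright spots both rises turned to -0.0286 and -0.00649. Psmd10, also known as gankyrin (chrX:137483840-137486736, mm9), was at -0.24, -0.04, 0.33, -0.32 and 0.01 and passed at no day, with an interaction adjusted p of 0.0362. Psmb7, Psmd2, Psmd4, Psmd10 and Psmd11 were the 5 of 36 members whose change differed between days, where 22.8% of all genes did. Levels in the control mice alone differed between days for 21 of 36 members, where 56.3% of all genes did.

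Core and regulatory particle were compared over mice, with the mean level of the 15 core genes and of the 17 regulatory genes in each mouse. The core mean changed by -0.76, -0.69, -0.75, -0.99 and -0.81 and the regulatory mean by -0.65, -0.48, -0.38, -0.75 and -0.58. All exposed mice lay below all controls in the core mean except for 1 mouse at day 30. In the regulatory mean, 4 of 4, 6 of 6, 4 of 6, 6 of 6 and 4 of 6 did. Core minus regulatory was lower in 90Sr mice by 0.12, 0.21, 0.37, 0.24 and 0.24, against an SD of 0.05, 0.03, 0.02, 0.05 and 0.14 among control mice and of 0.04, 0.09, 0.14, 0.17 and 0.09 among 90Sr mice, and 4 of 4, 6 of 6, 6 of 6, 5 of 6 and 4 of 6 exposed mice lay below all controls.

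This difference is a description with no test, and a constant scale factor of an array cancels in it. The regulatory mean includes Psmd4 (0.43 to 1.02) and Psmd8 (0.20 to 0.86), whose changes were above 0 at all 5 days. Both genes raise the regulatory mean and so widen the core minus regulatory difference. That difference without them was not computed, so it may rest on these genes and is not shown for the particle as a whole. Within the slides that held both groups, core minus regulatory was -0.19, -0.44, -0.0470 and -0.15 at days 7, 9, 25 and 30. Medians over genes did not order the particles the same way: the core median was -0.78, -0.67, -0.76, -0.96 and -0.82 and the regulatory median -0.91, -0.71, -0.59, -0.95 and -0.71, so the regulatory genes were lower at days 4 and 7. Among core genes 13, 13, 13, 14 and 11 of 15 fell and 0, 0, 0, 0 and 1 rose, and among regulatory genes 11, 12, 9, 13 and 11 of 17 fell and 1, 2, 3, 1 and 2 rose. In the authors' processed values, which cover 22 members, core minus regulatory was 0.23, -0.00684, -0.0692, 0.000703 and 0.06 over the 5 days. Those values rest on fewer genes than the 15 and 17 above.

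**Figure D4:**
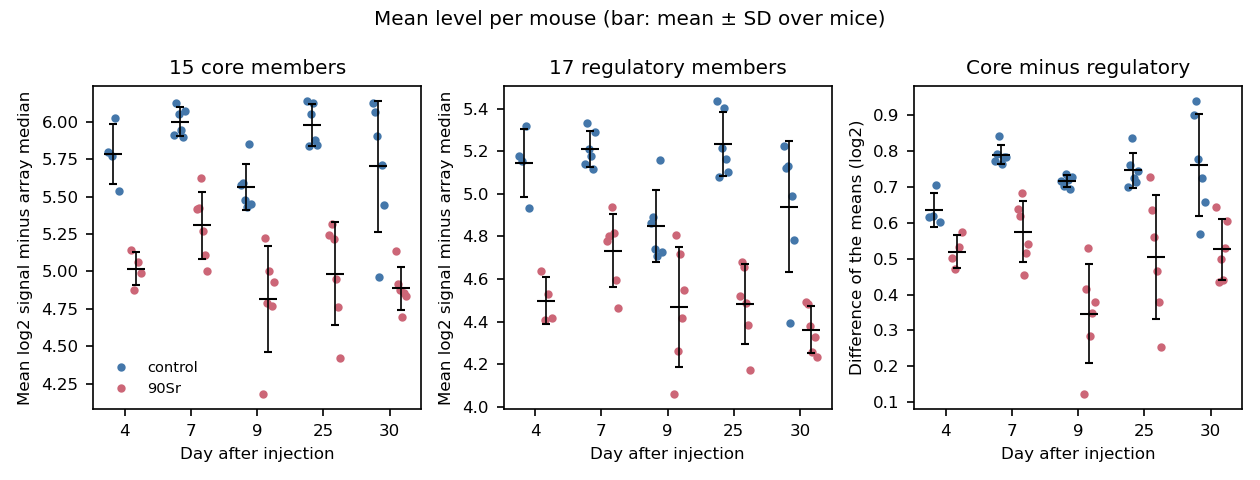
Mean level per mouse of the 15 core genes and of the 17 regulatory genes, and their difference (log2), by day and group, with the mean and SD over mice as a bar. At days 4, 7 and 9 all 90Sr mice lie below all controls in the difference. The regulatory mean includes Psmd4 and Psmd8, whose changes were above 0 at all 5 days and which widen the difference.

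**Figure D5:**
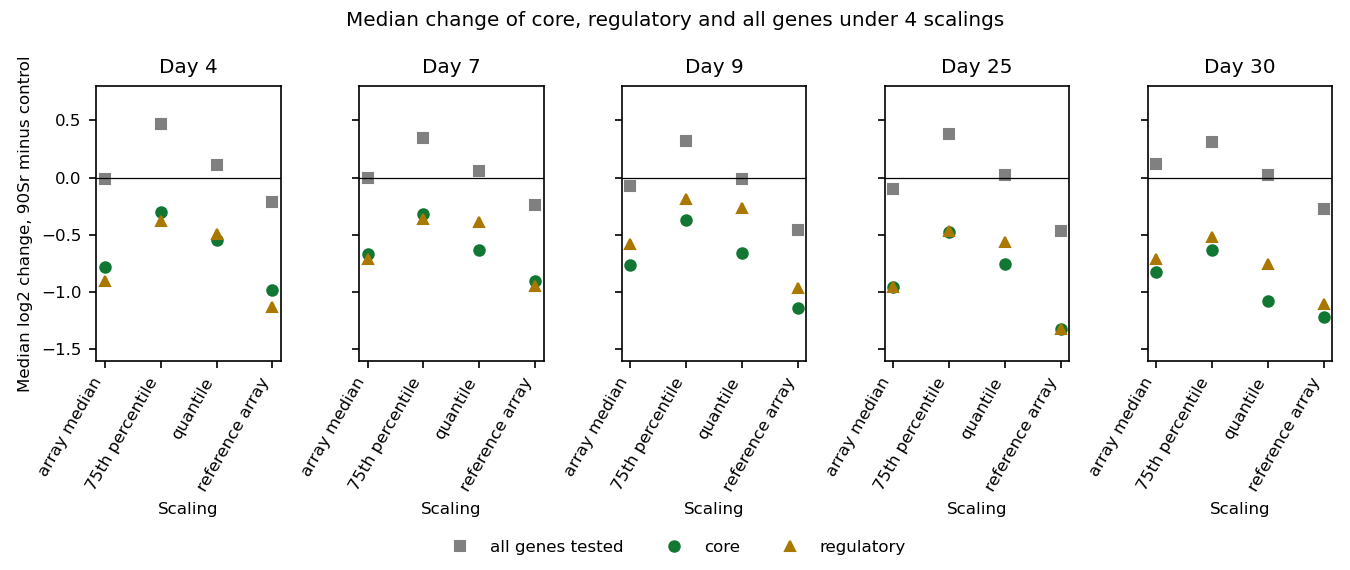
Median change of core, regulatory and all genes (log2, 90Sr minus control) under 4 scalings at each day. The core and regulatory medians are below 0 in all of them, and the median of all genes runs from -0.47 to 0.47.

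Of 34 other genes of the pathway, 33 were tested (Ngly1 was not), and 15, 15, 9, 17 and 12 fell while 6, 6, 9, 4 and 11 rose. Their median change was -0.34, -0.27, -0.20, -0.50 and -0.16, where the median over all genes was -0.01, -0.00, -0.08, -0.10 and 0.12. The share of all genes that fell was 33.6%, 33.6%, 27.3%, 38.2% and 29.7%, and at day 9 the list's share was the same as this background. The share of all genes that rose was 20.3%, 24.1%, 15.2%, 25.8% and 34.4%. The list's share of risen genes lay below this at days 4, 7 and 25, near it at day 30 and above it at day 9. The chaperones that assemble the core, Psmg1, Psmg3 and Psmg4, fell at all 5 days, Psmg3 by -1.34, -1.26, -1.48, -1.88 and -1.94. Psmg2 fell at all but day 9, and Pomp, the maturation factor of the core, fell at days 4, 7, 9 and 25 (-0.63, -0.47, -0.76 and -0.79). The ubiquitin receptor Adrm1 and the deubiquitinase Uchl5, which bind each other on the base, fell at all 5 days, and so did the shuttle factor Rad23b.

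Some other genes of the list were higher. Psmf1, an inhibitor of the core, changed by 0.96, 0.65, 1.33, 0.59 and 2.05 and rose at all 5 days by limma, as did the ubiquitin gene Ubb (0.79 at day 30). Of the interferon-induced 11S activator, Psme2 fell at days 4, 7, 25 and 30 (-0.72, -0.53, -0.73 and -0.70), while Psme1 was at -0.07, -0.05, 0.04, -0.35 and -0.05 and passed at no day. The activator Psme3 rose at days 9 and 30 (0.97 and 1.41), and the activator Psme4 at days 7, 9 and 30 (0.62, 0.75 and 1.02). Nfe2l1 was well above background on 14 arrays and passed at no day, and its relative Nfe2l2 fell at days 4, 7 and 25 (-0.89, -0.70 and -0.73).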

How the data were processed

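Each of the 56 arrays measured RNA from the blood of 1 mouse. The authors deposited scanner files of the Feature Extraction software (version 11.5.1.1 in the file headers, 10.7 in the submitters' notes), whose processed signal is a background-corrected intensity. They also deposited log2 values, which were used as an alternative. Non-control spots were log2-transformed and the array median was subtracted. Probes were dropped where the spot was uneven or failed the background test on at least 25% of arrays, and the brightest probe stood for a gene. Each day was fitted with limma 3.58.1 (R 4.3.3, statmod 1.5.0) over its own 2 groups, with Benjamini-Hochberg adjustment over all genes. All 56 arrays entered the tests of differences between days. No file gives a depth, and the number of mice limits precision. P-values measure the spread between these mice.

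The members and lists were chosen with earlier results of these data known. Genes given in full were, by a fixed rule, those of highest and lowest average change in each class, the catalytic subunits, members that rose at any day and members of smallest interaction p, with Psmb8, Psmb9, Psme1, Psme2, Pomp, Nfe2l1 and Nfe2l2 beside them. The fits were tested on simulated data of 18577 genes with 200 changed. A simulated log2 change of 1 was recovered for 0%, 43%, 51.5%, 46.5% and 45% of changed genes in day order and for 24.5% in the test between days, and a log2 change of 2, simulated after that low recovery was seen, for 89.5%, 94.5%, 95%, 97% and 95.5% and for 90.5%. In the data far more genes passed (33.6% lower and 20.3% higher at day 4), which makes the adjustment less strict than in the simulation. These recoveries therefore do not give the share of real changes that was missed. Probe positions are those of the array's annotation (mm9). Alternatives were the scaling, background correction, filters, probe choice, blocks, call rule, the authors' values and leaving out each array. Some genes of the pathway list are counted but not reported by name here.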

Additional observations from a re-analysis of the deposited data

Results flagged for a closer look

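In 21 of 200 groups of 4 to 6 mice examined, 1 mouse stood apart from the others by Dixon's test, where chance flags about 1 in 20 groups. The groups hold several quantities of the same mice, so these flags cannot be set against that rate as separate tests. Values below are the gap to the nearest mouse as a share of the group's range. Among 90Sr mice the lowest mouse stood apart for Psmb10 at day 4 (0.887), for Psma5 (0.662), Psmb5 (0.755), Psmc3 (0.706), Psmd4 (0.639) and Psmd10 (0.682) at day 9, and for Psmb5 at day 25 (0.639). The highest 90Sr mouse stood apart for Psmd10 at day 4 (0.855), Psmb7 (0.717) and Psmd9 (0.745) at day 7 and Psmb10 at day 30 (0.672). Among control mice the highest stood apart for Psma5 (0.674), Psmc3 (0.637) and Psmd5 (0.634) at day 7, Psmb6 at day 9 (0.628), Psmd10 at day 25 (0.782) and Psmd2 at day 30 (0.688), and for core minus regulatory at days 4 (0.836) and 7 (0.644). The lowest control stood apart at day 9 for Psmd4 (0.848) and Psmd8 (0.732). At day 9, 90Sr replicate 1 had the lowest core mean of its group (4.18, the others 4.77 to 5.22), so flags at that day may share 1 array. The array median subtracted from its values was 4.12 (the others 2.87 to 3.70), and its 75th percentile was 6.26 (the others 5.25 to 6.22). The causes of the flagged values were not tested.

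The 90Sr minus control difference varied over the days for 5 members by limma's interaction test over all genes: Psmd2 (adjusted p = 0.00268), Psmb7 (0.00331), Psmd11 (0.0129), Psmd10 (0.0362) and Psmd4 (0.0388). Their control levels also differed between days (limma, adjusted p = 3.34e-05, 1.25e-07, 8.28e-05, 0.00031 and 0.0175 in that order). Days shared no slide or scan day, so a varying response to 90Sr and array batch cannot be told apart. Psmd2 was higher at day 9 by 0.81 and within 0.23 of 0 at the other days. Psmb7 was lower at days 7 and 9 and higher at day 30.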

How the results depend on the processing

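Counts of members lower and higher, the core minus regulatory difference, the number of members whose effect differed between days, and the named genes' changes were recomputed under each alternative. Causes were not tested unless stated. Values run in day order, or name the day.

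With the 75th percentile scaling 11 members were lower at day 9, and 7, 6, 7 and 3 were higher at days 4, 7, 9 and 25, with 11 differing between days. Psma5 stood at 0.39 and 0.31, Psmb5 at 0.0143 and 0.0172 and Psme1 at 0.41 and 0.29 at days 4 and 7, Psmd11 and Psmd2 at 0.39 and 0.47 at day 4, Psmb7 and Psmd10 at 0.0687 and 0.31 at day 7, and Psmd9 at 0.46 at day 25. With quantile normalization 4, 5, 5 and 2 were higher at days 4 to 25, where 27.8%, 27.8%, 18.4% and 30.2% of all genes were. There 11 differed between days, core minus regulatory was -0.18 and -0.28 at days 4 and 7, Psmd11 was 0.32 at day 4 and Psmd10 0.29 at day 7. With reference array scaling 0, 1, 0 and 2 were higher at days 7 to 30, where 11.8%, 6.27%, 10.4% and 20.6% of all genes were, and Psmd10 was -0.39 at day 30.

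The planned normexp background correction, with an offset of 50, left 0 members lower at every day (14, 19, 14, 0 and 0 at an unadjusted p under 0.05, limma), 0 higher at days 4 to 25, and 0 differing between days. Of all genes, 0%, 0%, 3.03%, 0% and 1.66% were lower there, and 0%, 0%, 0.362% and 0% were higher at days 4 to 25. Array medians then ran from 6.24 to 10.51, since 247 spots of very bright local background set the fit on several arrays. Under it core minus regulatory was -0.42 and -0.30 at days 4 and 7, Psmd4 was -1.12 and -0.0424 at those days, Psmd8 -0.13 and Psmd9 -0.11 at day 7, Psma5 0.45, Psmb5 0.23, Psmc3 0.50, Psme2 0.33, Pomp 0.23 and Nfe2l2 0.15 at day 25, and Psmb5 0.26 and Psme2 0.23 at day 30. Without those 247 spots, array medians ran from 6.24 to 6.72, and 4.12%, 8.14%, 5.82%, 11.9% and 18.7% of all genes were higher. That run was added after the outcome of the planned correction was seen. It is the normexp correction whose gene values were quoted above, and gave 33, 31, 31, 34 and 28 members lower and 0, 0, 0, 0 and 1 higher, core minus regulatory -0.24, -0.30, -0.47 and -0.39 at days 4, 7, 9 and 30, Psmd4 -0.0342 and -0.12 at days 4 and 25, Psmd8 -0.29, -0.0522 and -0.35 at days 4, 9 and 25, Psmd9 -0.0286 and -0.00649 at days 7 and 30, Psma5 -0.63 and Psme1 -0.71 at day 9, Psmd10 -0.28 and -0.37 at days 9 and 30, and Psmb7 -0.00874 at day 30.

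The filter on variation kept 22 members and left 1 higher at days 7, 9 and 30, where 27.5%, 16.0% and 35.2% of all genes were. It left 1 differing between days, and core minus regulatory at 0.0301 at day 4. Without the detection filter 5 and 3 were higher at days 9 and 25, where 34.1% and 40.3% of all genes were, and 3 differed. With the mean of probes Psmd9 was -0.0164 at day 7. In the authors' values, which hold 22 members, 0 were higher at any day and 3 differed between days, and core minus regulatory was 0.23, -0.00684, -0.0692, 0.000703 and 0.0608. Of all genes in those values, 20.8%, 22.3%, 11.8%, 33.5% and 24.5% were higher. A risen member outside those 22 could not be counted there. With the methods' rule 10, 4, 5, 15 and 11 were lower, and with the methods' t-test 7, 4, 5, 15 and 9. The slide as a block left 10, 0 and 0 lower at days 9, 25 and 30, 0, 1, 0 and 0 higher at days 7 to 30, and core minus regulatory -0.0470 at day 25. Of all genes, 9.61%, 6.12%, 0.00532% and 0.181% were then higher at days 7 to 30. The slide as a random block left 0 higher at day 25, where 20.7% of all genes were, and 2 differing. The scan day as a block left 1 higher at day 7, and 11 lower (23 without the block) and 2 higher at day 30. The share of all genes is not given for that block.

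Same-numbered mice correlated above 0.1 for 3 of 4 pairs at day 4 and for 1, 0, 1 and 3 of 6 pairs afterwards. At day 4 all 4 controls correlated best with the 90Sr mouse of their own number, and afterwards 2, 0, 0 and 2 of 6 did. The numbers were not taken to pair mice in the main fits, and whether they do at day 4 was not tested. With the replicate block 24, 25, 18, 28 and 24 members were lower and 1, 3, 3, 0 and 4 higher. Shares of all genes are not given for this block or for the runs that leave out 1 array. Leaving out each array in turn gave 24 to 27, 23 to 26, 18 to 23, 28 to 31 and 20 to 26 lower, 3 to 5 higher at day 9 (5 without 90Sr replicate 1) and 0 to 1 at day 25 (0 without control replicates 2, 3 or 5 or 90Sr replicates 3 or 5). Signal over background limits Psmc3ip and Nfe2l1.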
